A study of Bos taurus with 18 samples.

Results

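HAS2, CHST11, BPNT2 and CHI3L2 are genes of hyaluronan synthesis, sulfation and the chitinase-like proteins, and their RNA was followed in bovine endometrial epithelial cells (bEECs) and stromal cells (bESCs) grown on either side of a porous membrane in a microfluidic device. They were picked by function from among the genes listed in the study as altered by recombinant bovine CAPG (rbCAPG) in bEECs, and were found in the count table through the listed pairs of Ensembl identifiers and symbols. These are 4 of 36075 genes in the table, and all 4 were among the 17931 genes that passed the filter on low counts, CHI3L2 only through the treated bEECs. The rbCAPG comparison in bEECs is therefore no independent evidence for these genes, and the rbPDI comparison in bEECs shares its control samples.

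The samples were 18 RNA sequencing libraries in 6 groups of 3, from the bEECs and the bESCs of each device. Both cell types of a device came from the same animal, and the 3 replicates of a group were 3 animals, whose tracts were collected at an abattoir in the late luteal phase. Devices received PBS as vehicle control (VC), rbCAPG or recombinant bovine protein disulphide isomerase (rbPDI), each protein at 1 µg/mL, for 24 h. CAPG (macrophage-capping protein) and PDI are proteins that the bovine conceptus secretes. The medium with the protein flowed past the bEECs, while the bESCs stayed in a static chamber across the membrane. The populations were enriched by differential trypsinization, not sorted, and the genotype of the animals was not given in the sources used here.

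Hyaluronan is a long, unsulfated glycosaminoglycan that synthases in the plasma membrane extrude into the extracellular matrix, and HAS2 is the main synthase of many mesenchymal cells. Chondroitin sulfate chains are built in the Golgi on core proteins such as versican, and CHST11 places sulfate on their N-acetylgalactosamine residues, using the donor PAPS. The spent donor, PAP, is broken down in the Golgi by the phosphatase BPNT2, whose loss in mice impairs the sulfation of glycosaminoglycans. CHI3L2 belongs to the glycosyl hydrolase 18 family of chitinase-like proteins, which bind chitin or related sugars but have lost the catalytic activity of true chitinases. In the endometrium, hyaluronan and sulfated proteoglycans are part of the stromal matrix and of the surface that the conceptus meets.

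Total counts ran from 10072851 to 44253149 per library, and the shallowest library was rbPDI replicate 1 of the bESCs. Levels are given in CPM, counts per 1000000 library counts after scaling by TMM factors, and are compared between samples but not between genes, because the counts were not divided by gene length. In bulk RNA, fewer cells of a type and less RNA per cell cannot be told apart. The cell type labels could be checked on few markers, because symbols were paired only with genes that the study listed as altered. The summed level of 2 of 7 epithelial markers, OCLN and MUC1, was 325.0 to 883.4 CPM over the bEEC libraries and 0.351 to 3.98 CPM over the bESC libraries. The summed level of 3 of 7 stromal markers, COL6A1, HAND2 and ZEB1, was 81.9 to 102.6 CPM in bESC libraries and 4.41 to 31.4 CPM in bEEC libraries. Each library therefore followed its label, and stromal markers were low but not at 0 in the bEEC libraries.

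The hyaluronan synthase HAS2 was chiefly a bESC transcript. In bESCs its level was 4.40, 3.63 and 0.60 CPM with VC in animals 1, 2 and 3, from 99.5, 176.5 and 27.5 counts. It was 4.68, 6.62 and 7.24 CPM with rbCAPG and 12.7, 6.03 and 6.98 CPM with rbPDI. The VC samples lay below all treated samples, animal 3 furthest, and the highest value of all was the shallow rbPDI library of animal 1. In bEECs HAS2 stood at 0.151, 0.032 and 0 CPM with VC, which is 5, 1 and 0 reads. It reached 0.455, 0.537 and 0.774 CPM with rbCAPG (11, 18 and 26.5 reads) and 1.02, 0.546 and 1.07 CPM with rbPDI (24, 16.5 and 40.5 reads). Every treated bEEC sample was above every VC sample, and the rbCAPG and rbPDI samples overlapped. The uneven counts of HAS2, not whole in 9 of 18 samples, come from reads that the counting shared between genes or positions.

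CHST11, the chondroitin 4-sulfotransferase, had the same order of cell types at lower counts. Its level in bESCs was 1.72, 2.33 and 2.06 CPM with VC, 3.06, 3.01 and 3.78 CPM with rbCAPG, and 4.0, 3.07 and 3.31 CPM with rbPDI. All 6 treated bESC samples were above the 3 VC samples. In bEECs it was 0.0604, 0.192 and 0.299 CPM with VC (2, 6 and 10 reads) and 0.496, 0.537 and 0.566 CPM with rbCAPG (12, 18 and 19 reads). With rbPDI it was 0.213, 0.273 and 0.43 CPM (5, 8 and 16 reads). The rbCAPG samples lay above all others in bEECs, whereas the rbPDI samples overlapped those of VC. The bovine RefSeq annotation (ARS-UCD2.0), not the one used for counting, places the long non-coding gene LOC112446720 over CHST11. No strand setting is stated for the counting, so some reads could belong to either gene, which was not tested. The CHST11 counts were not whole in 1 of 18 samples.

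BPNT2, the Golgi phosphatase of sulfation, was well covered in both cell types, with 1183 to 4413 counts in every sample. In bEECs its level was 56.3, 46.8 and 42.8 CPM with VC, 105, 84.3 and 109.4 CPM with rbCAPG, and 130.5, 95.8 and 107 CPM with rbPDI. In bESCs it was 59.3, 39.9 and 46.9 CPM with VC, 69.0, 81.9 and 57.4 CPM with rbCAPG, and 102.9, 76.1 and 81.9 CPM with rbPDI. The treated bEEC samples did not overlap those of VC, the bESC rbPDI samples did not either, and in bESCs the rbCAPG value of animal 3 lay under the VC value of animal 1.

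The chitinase-like gene CHI3L2 was detected only in bEEC libraries. It had 1, 0 and 0 reads with VC, 6, 20 and 17 reads with rbCAPG (0.248, 0.596 and 0.506 CPM), and 9, 22 and 19 reads with rbPDI (0.383, 0.751 and 0.51 CPM). All 6 treated samples were above the VC samples, and the rbCAPG and rbPDI samples overlapped. The 9 bESC libraries held 0 reads of CHI3L2 in 324781424 counts, which allows a share of up to 9.24e-07% and, for single libraries, a level of up to 0.0557 to 0.261 CPM. These limits cover counting error only.

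**Figure D1:**
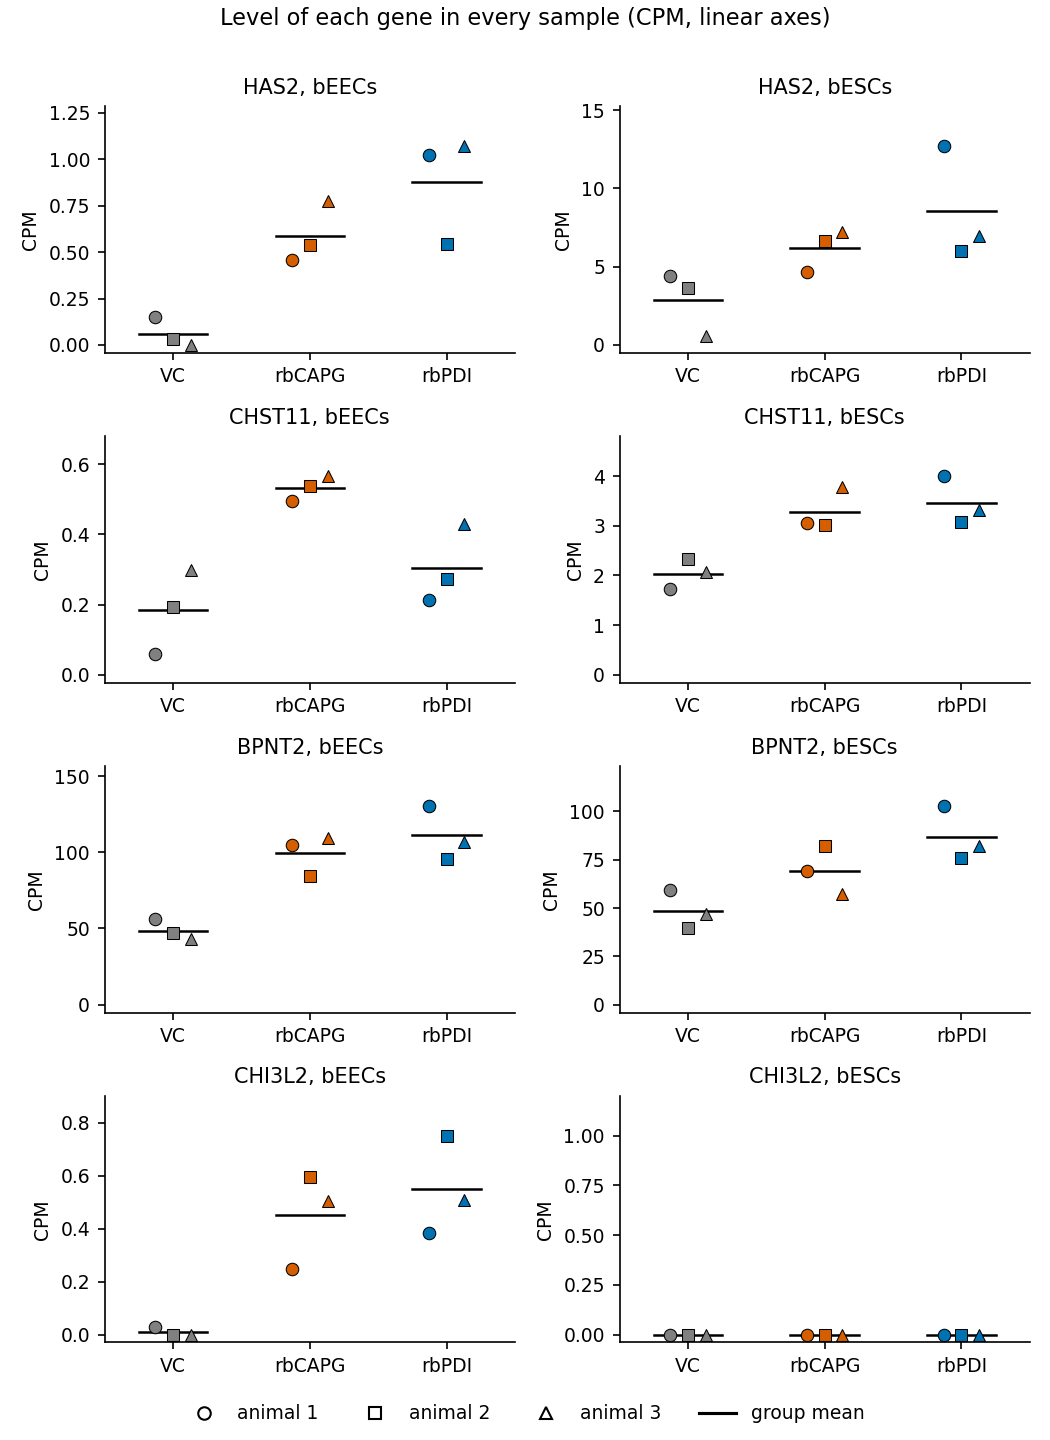
Level of HAS2, CHST11, BPNT2 and CHI3L2 in CPM (linear y axes that differ between panels) in every bEEC sample (left) and bESC sample (right) by treatment; each symbol is 1 animal and each bar the mean of 3. Treated bEEC samples lie above all VC samples for HAS2, BPNT2 and CHI3L2, CHST11 does so with rbCAPG only, and CHI3L2 is at 0 in all 9 bESC samples.

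By group mean, HAS2 was ordered bESC rbPDI (8.57 ± 3.60 CPM), bESC rbCAPG (6.18 ± 1.34), bESC VC (2.88 ± 2.01), bEEC rbPDI (0.881 ± 0.291), bEEC rbCAPG (0.589 ± 0.166) and bEEC VC (0.061 ± 0.0796; SD, n = 3 throughout). The ranges of the treated bESC groups overlapped, as did those of bESC VC and bEEC rbPDI and those of the treated bEEC groups, so the order within these pairs is not resolved. CHST11 ran from bESC rbPDI (3.46 ± 0.484 CPM), rbCAPG (3.28 ± 0.434) and VC (2.04 ± 0.307) to bEEC rbCAPG (0.533 ± 0.035), rbPDI (0.305 ± 0.112) and VC (0.184 ± 0.120). Here the treated bESC groups overlapped each other, as did bEEC rbPDI and VC. BPNT2 ran from bEEC rbPDI (111.1 ± 17.7 CPM) and rbCAPG (99.6 ± 13.4) through bESC rbPDI (87.0 ± 14.1), rbCAPG (69.4 ± 12.2) and VC (48.7 ± 9.81) to bEEC VC (48.6 ± 6.96), and every neighbouring pair overlapped. For CHI3L2 the bEEC means were 0.548 ± 0.187 CPM with rbPDI and 0.45 ± 0.181 CPM with rbCAPG.

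The first comparison asked which cell type carried these transcripts without conceptus protein. With VC, HAS2 and CHST11 were lower in bEECs than in bESCs, and BPNT2 was at a like level in both. HAS2 was lower by a log2 difference of -5.46 (SE 0.82, adjusted p = 4.59e-05 by edgeR's quasi-likelihood test with Benjamini-Hochberg adjustment, lower in 3 of 3 animals). CHST11 was lower by a log2 difference of -3.45 (SE 0.43, edgeR adjusted p = 6.44e-06, 3 of 3 animals). A call here is an adjusted p below 0.05 with a log2 change beyond 1 in size, a rule that 18.9% of all genes tested met as lower in bEECs and 19.6% as higher. For BPNT2 the edgeR log2 difference was near 0 (adjusted p = 0.996), and DESeq2 gave 0.04 (SE 0.21). CHI3L2 was at or under the level that 3 reads give in both cell types, so no fold is given.

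In bEECs, rbCAPG was asked about next, the contrast from which the study listed these genes. BPNT2 rose, by 1.03 on the log2 scale (SE 0.21, 95% interval 0.58 to 1.49, edgeR adjusted p = 0.0394, 3 of 3 animals). HAS2 was 3.20 log2 units above VC (SE 0.84, interval 1.41 to 4.99) with an edgeR adjusted p of 0.143, and CHST11 was 1.52 above (SE 0.43, interval 0.61 to 2.43) with 0.189. Neither passed, although each was higher in 3 of 3 animals with no overlap. The summed CHI3L2 reads were 43 with rbCAPG against 1 with VC, a depth-corrected ratio of 46.0 (95% counting interval 7.83 to 1860), and its edgeR adjusted p was 0.0679. With VC set at a floor of 3 reads the CHI3L2 ratio was 15.3. Because CHI3L2 entered the fit only through its treated bEEC counts, its p-values in bEECs are given as a description.

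Thus edgeR called 1 of 4 genes, where 0.513% of all genes were called higher, and nothing is read from that share because this contrast chose the genes. All 4 had non-overlapping groups, as did 8.72% of all genes in that direction, and all 4 were higher in 3 of 3 animals, as were 18.5% of all genes. With the animal as a block, which the pairing of samples by animal allows, the adjusted p of CHI3L2 was 0.0239, making 2 of 4 where 2.04% of genes were called higher, and HAS2 (0.0981) and CHST11 (0.056) did not. DESeq2, the tool of the original analysis, called all 4 where 0.879% of its 29808 genes, a wider set than that of edgeR, were called higher. Its adjusted p was 0.00751 for HAS2, 0.05 for CHST11 (just under the threshold before rounding), 0.000153 for BPNT2 and 0.0115 for CHI3L2. The BPNT2 call was lost when any of VC replicates 1, 2 or 3 or rbCAPG replicates 1 or 3 was left out (adjusted p 0.079 to 0.249), while its log2 change stayed between 0.95 and 1.15. Without VC replicate 1, the sample with 5 of the 6 VC reads, the HAS2 log2 change was 4.96.

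With rbPDI in bEECs, HAS2 and BPNT2 rose, CHST11 did not pass, and CHI3L2 went from 1 read to 50. HAS2 rose by 3.77 on the log2 scale (SE 0.83, interval 2.01 to 5.53, edgeR adjusted p = 0.0421) and BPNT2 by 1.19 (SE 0.21, interval 0.74 to 1.65, edgeR adjusted p = 0.00895), both in 3 of 3 animals. CHI3L2 had 50 summed reads against 1, a ratio of 54.3 (95% counting interval 9.31 to 2187), with an edgeR adjusted p of 0.0366, again a description. With VC set at a floor of 3 reads the CHI3L2 ratio was 18.1. The CHST11 log2 change was 0.75 (SE 0.44, interval -0.19 to 1.69, edgeR adjusted p = 0.777), higher in 3 of 3 animals with overlapping groups. DESeq2 also called HAS2, BPNT2 and CHI3L2, where 1.16% of its genes were called higher, with CHST11 at an adjusted p of 0.702.

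Among all genes, 0.77% were called higher with rbPDI in bEECs (2.57% with the animal as a block), 8.06% had non-overlapping groups in that direction and 19.8% were higher in 3 of 3 animals. Apart from CHI3L2, 2 of 3 genes were called, and nothing is read from that share, because the genes were picked from a contrast with the same VC samples. For the same reason the medians over HAS2, CHST11 and BPNT2, a log2 change of 1.19 with rbPDI (-0.01 over all genes tested) and 1.52 with rbCAPG (0.02 over all genes), are descriptions. These calls rested on few samples. Without VC replicate 2 or VC replicate 3, 0 of 4 genes were called. Without rbPDI replicate 1, 2 or 3, BPNT2 alone was called, and without VC replicate 1, where HAS2 was 5.53 log2 units above VC, HAS2 and BPNT2 were.

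**Figure D2:**
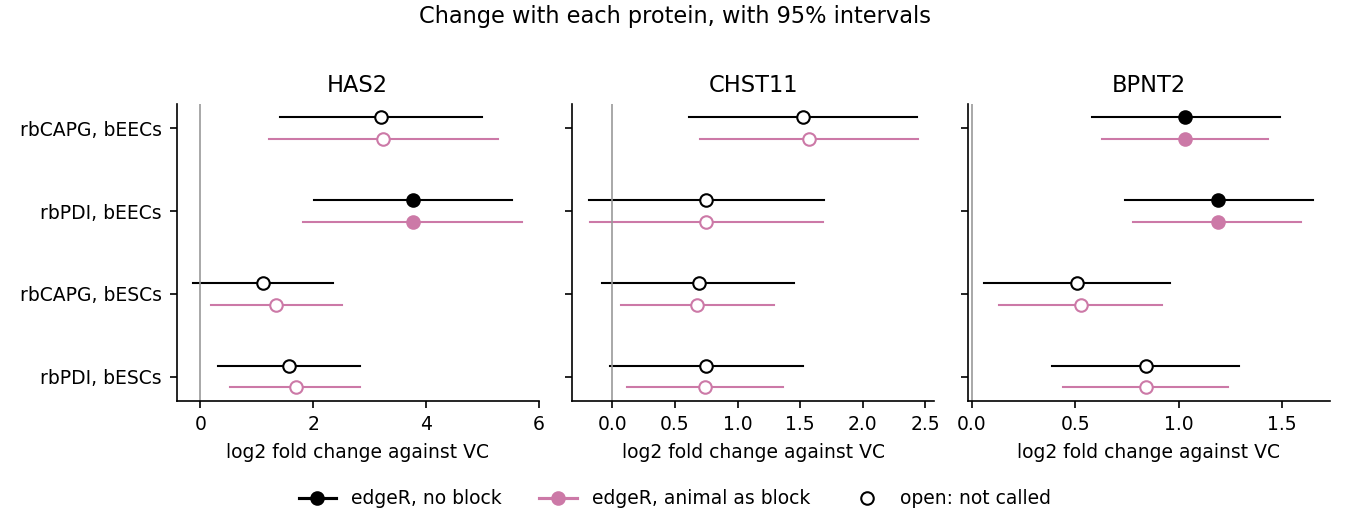
Log2 fold change against VC (x axis) of HAS2, CHST11 and BPNT2 with each protein and cell type (y axis); points are edgeR estimates and lines 95% intervals, black without and pink with the animal as a block, and filled points were called. All estimates lie above 0, and the filled points, HAS2 with rbPDI and BPNT2 with both proteins, are in bEECs; CHI3L2 is left out because its VC group holds 1 read.

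**Figure D3:**
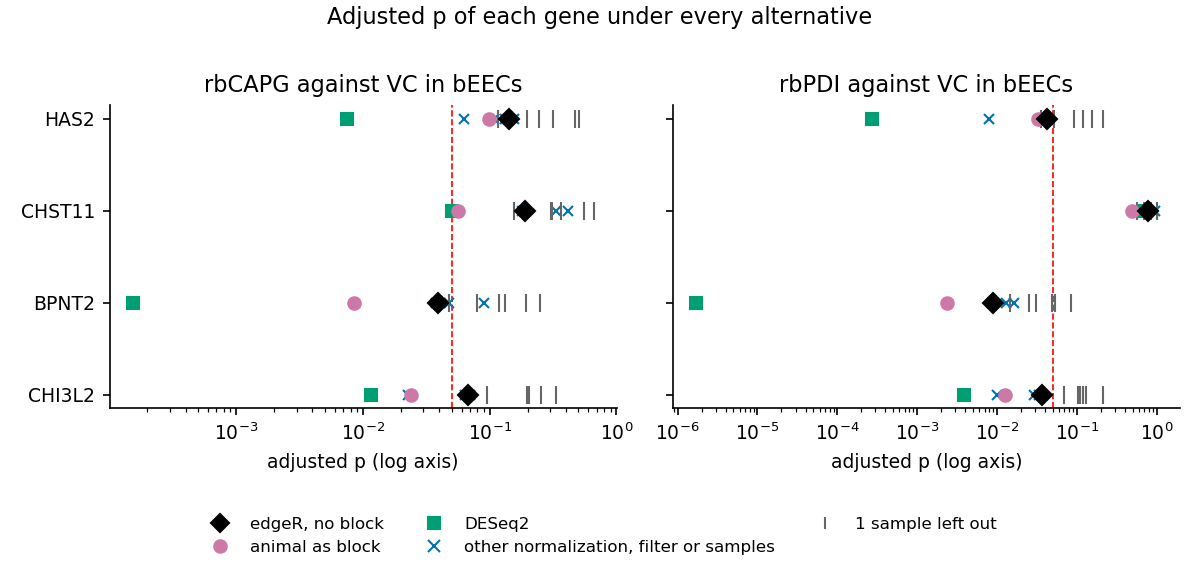
Adjusted p (log x axis) of each gene in bEECs with rbCAPG (left) and rbPDI (right) without the block, with it, with DESeq2, with another normalization, filter or choice of samples, and with 1 sample left out; the dashed line is 0.05. BPNT2 runs from 0.000153 to 0.249 with rbCAPG and from 1.69e-06 to 0.0851 with rbPDI, DESeq2 gives its lowest value in both, and marks for leaving out 1 sample fall mostly to the right of the unblocked value.

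In the bESCs, which lay across the membrane from the medium with the proteins, neither protein gave a call for the 3 genes detected there. With rbCAPG the log2 changes were 1.11 for HAS2 (SE 0.59, interval -0.13 to 2.36), 0.69 for CHST11 (SE 0.36, interval -0.08 to 1.45) and 0.51 for BPNT2 (SE 0.21, interval 0.06 to 0.96), each with an edgeR adjusted p of 1.00. With rbPDI they were 1.57 for HAS2 (SE 0.60, interval 0.31 to 2.84, edgeR adjusted p = 0.704), 0.75 for CHST11 (SE 0.36, interval -0.02 to 1.52, 0.944) and 0.84 for BPNT2 (SE 0.21, interval 0.39 to 1.29, 0.186). All 3 genes were higher in 3 of 3 animals with either protein, as were 9.72% of all genes with rbCAPG and 13.3% with rbPDI. The sum of the epithelial markers OCLN and MUC1 in bESCs was 0.351 to 0.578 CPM with VC. It was 1.36 to 2.46 CPM with rbCAPG and 1.3 to 3.98 CPM with rbPDI, where edgeR called OCLN (2.82, adjusted p = 0.0402). With rbPDI, MUC1 was higher in 3 of 3 animals and OCLN in 2 of 3. In animal 1 OCLN was 0.261 CPM with rbPDI against 0.308 CPM with VC. OCLN and MUC1 could be matched only because the study had listed them as altered with rbCAPG. DESeq2 called OCLN with rbCAPG in bESCs (2.38, adjusted p = 0.000555), where 0.228% of its genes were called higher, but not in bEECs (0.15). Its rise in treated bESCs is therefore a description. The part of epithelial RNA in the bESC values was not tested.

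By edgeR, 0 of 3 genes were called with each protein, where 0.0948% of all genes were called higher with rbCAPG and 0.173% with rbPDI. At an unadjusted p below 0.05, edgeR gave 1 gene with rbCAPG (BPNT2) and 2 with rbPDI (HAS2 and BPNT2). DESeq2 also called 0 of 3 with each protein, with all 3 genes at an unadjusted p below 0.05 in both. For BPNT2 with rbPDI, the adjusted p was 0.043 with the animal as a block and 0.0107 by DESeq2, at log2 changes of 0.84 and 0.83, under the fold limit. Non-overlapping groups were seen for HAS2 and CHST11 with rbCAPG (3.02% of all genes) and for all 3 genes with rbPDI (4.1%). The HAS2 change with rbCAPG was 0.64 without VC replicate 3, the lowest VC sample, and the one with rbPDI was 1.08 without that sample and 1.18 without rbPDI replicate 1.

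Whether a protein acted differently on the 2 cell types was tested by the difference of the log2 changes. Neither this test nor the one between cell types with VC paired the 2 cell types of an animal. The block was set within each cell type and does not pair them either. For HAS2 the change in bEECs exceeded that in bESCs by 2.09 with rbCAPG (SE 1.03, interval -0.10 to 4.27) and by 2.20 with rbPDI (SE 1.02, interval 0.03 to 4.36), each with an edgeR adjusted p of 1.00. For BPNT2 the differences were 0.52 (SE 0.30) and 0.36 (SE 0.30), and for CHST11 with rbCAPG 0.83 (SE 0.55), with edgeR adjusted p of 1.00. By edgeR 0 of 3 genes were called in either test, where 0.0669% of all genes were called with rbCAPG and 0.0948% with rbPDI, DESeq2 called 0 as well, and at an unadjusted p below 0.05 edgeR gave 0 genes with rbCAPG and 1, HAS2, with rbPDI. The effect on CHI3L2 could not be compared, because bESCs held no reads of it.

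The 2 proteins were set against each other at their equal dose and time. In bEECs CHST11 was lower with rbPDI than with rbCAPG in 3 of 3 animals with no overlap, a log2 difference of -0.77 (SE 0.41, interval -1.65 to 0.10) whose edgeR adjusted p was 1.00, and 2.32% of all genes had non-overlapping groups in that direction. The differences of rbPDI from rbCAPG in bEECs were 0.57 for HAS2 (interval -0.79 to 1.93), 0.16 for BPNT2 (-0.29 to 0.61) and 0.27 for CHI3L2 (-1.20 to 1.75). In bESCs they were 0.46 for HAS2 (-0.77 to 1.69), 0.32 for BPNT2 (-0.12 to 0.77) and 0.07 for CHST11 (DESeq2 0.05, SE 0.26). Neither edgeR nor DESeq2 called any of these genes, and none had an unadjusted p below 0.05. Across all 17931 genes edgeR also called 0 (0.0%) in each cell type, with 103 genes in bEECs and 319 in bESCs at an unadjusted p below 0.05.

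Other genes of glycosaminoglycan and amino sugar biology could be read only where the study had listed them, so they share the selection of the main genes. Of 51 further genes of glycosaminoglycan synthesis, turnover and matrix binding 2 could be matched, and of 8 chitinase-like and amino sugar genes 2. With ANGPT1, from the study's aminoglycan term, that gives 5 genes. VCAN is versican, the hyaluronan-binding chondroitin sulfate proteoglycan, and ARSI is an arylsulfatase. GALNT7 adds N-acetylgalactosamine to mucin-type glycans, PGLYRP3 is a peptidoglycan recognition protein, and ANGPT1 is the ligand of the endothelial receptor TEK.

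In bEECs with rbCAPG, edgeR called 0 of these 5 genes, where 0.513% of all genes were called higher. All 5 had log2 changes above 0 (median 2.38) and an unadjusted p below 0.05. DESeq2 called all 5, where 0.879% of its genes were called higher. With the animal as a block, where 2.04% of all genes were called higher, edgeR called ARSI (2.34, adjusted p = 0.00928), VCAN (1.46, 0.0342), PGLYRP3 (2.74, 0.0326) and ANGPT1 (2.54, 0.00928), while GALNT7 was at 1.00 (0.0144) and not past the fold limit. With rbPDI, edgeR called PGLYRP3 (3.89, adjusted p = 0.0152) and ANGPT1 (3.63, 0.00488), where 0.77% of all genes were called higher, with a median of 2.30 over the 5. With the block it also called ARSI (2.12, adjusted p = 0.0127), making 3 of 5 where 2.57% of all genes were called higher. DESeq2 called those 3 as well, where 1.16% of its genes were called higher. These shares describe genes that were listed for their change in the same bEEC samples. PGLYRP3 held 4, 15 and 5 reads in the bEEC VC samples. Like CHI3L2, it entered the fit only through its treated bEEC counts, so its p-values in bEECs are given as a description. In bESCs PGLYRP3 had 1 read with VC and 0 with either protein, too few for a call there. Of the other related genes, edgeR and DESeq2 called 0 in bESCs with either protein, where edgeR called 0.0948% and 0.173% of all genes higher. With VC, VCAN (-5.47), ARSI (-3.02) and ANGPT1 (-3.30) were lower in bEECs than in bESCs, as HAS2 and CHST11 were. PGLYRP3 had 24 summed reads in bEECs with VC against 1 in bESCs, which is under the floor of 3 reads, so no fold is given.

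Since HAS2 and CHST11 were mainly stromal transcripts, their bEEC level was set beside that of the stromal markers. The mean HAS2 level in bEECs was 2.12% of that in bESCs with VC, 9.52% with rbCAPG and 10.3% with rbPDI, and for CHST11 it was 9.03%, 16.2% and 8.83%. HAND2 was at 2.15%, 8.99% and 4.20%, ZEB1 at 6.59%, 21.1% and 22.4%, and COL6A1 at 9.49%, 21.1% and 16.4%. The 3 stromal markers thus also stood at a larger share of their bESC level in treated bEECs.

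Their summed level in bEECs was 4.41 to 10.3 CPM with VC, 11.5 to 31.4 with rbCAPG and 7.54 to 21.2 with rbPDI. With the animal as a block, edgeR called all 3 higher with rbCAPG (HAND2 2.05, adjusted p = 0.0261, ZEB1 1.54, 0.00257, COL6A1 1.46, 0.0318), where 2.04% of all genes were. With rbPDI and the block it called 1 of 3, ZEB1, higher (1.57, 0.00158), where 2.57% of all genes were. Without the block it called 0 of 3 with either protein, where 0.513% (rbCAPG) and 0.77% (rbPDI) of all genes were called higher. With rbCAPG they then had adjusted p of 0.0796, 0.155 and 0.269. DESeq2 called all 3 higher with rbCAPG (adjusted p = 0.0172, 0.011 and 0.0467), where 0.879% of its genes were. With rbPDI it called ZEB1 alone (0.00862), where 1.16% of its genes were called higher. The 3 could be matched because the study had listed them as altered, and the part of stromal RNA in the HAS2 and CHST11 results was not tested. BPNT2 in treated bEECs stood at 143.4% and 127.7% of its bESC level, and CHI3L2 was at 0 in bESCs.

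**Figure D4:**
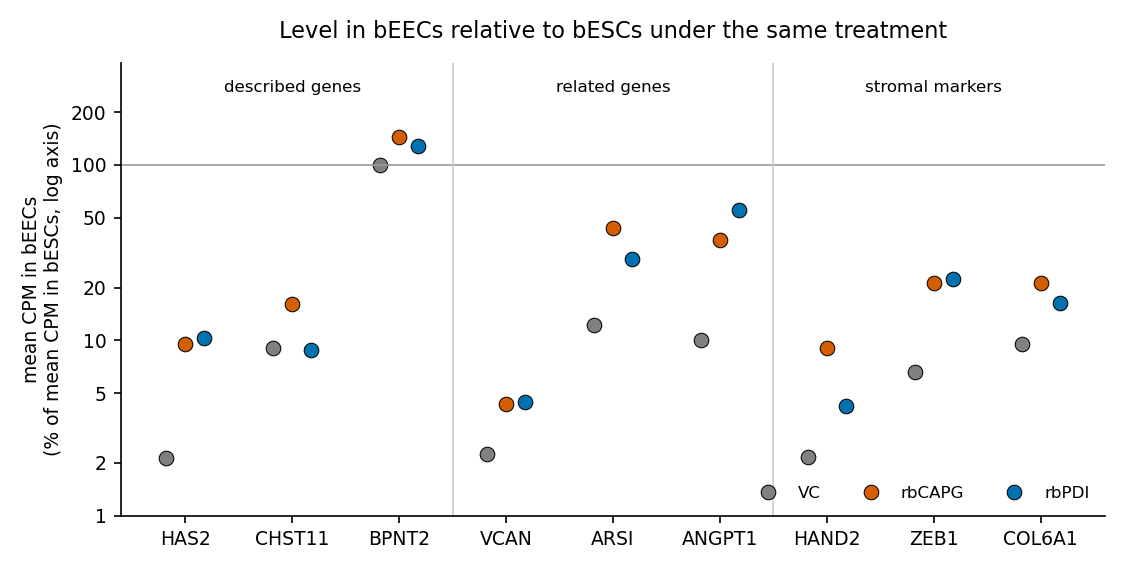
Mean CPM in bEECs as a percent of the mean CPM in bESCs under the same treatment (log y axis) for HAS2, CHST11 and BPNT2, related genes and stromal markers; each point is a ratio of means of 3 samples, and the line marks 100%. HAS2 moves from 2.12% with VC to 9.52% and 10.3%, the stromal markers move upward as well, and BPNT2 stays near or above the line.

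The epithelial marker MUC1 and markers of other cells were also higher in treated bEECs. The sum of OCLN and MUC1 in bEECs was 325.0 to 547.5 CPM with VC, 769.9 to 825.0 with rbCAPG and 722.0 to 883.4 with rbPDI. MUC1 was 1.13 and 1.16 log2 units above VC, not called without the block (adjusted p = 0.16 and 0.105) and called with it (0.0444 and 0.0323). The OCLN changes were 0.15 (interval -0.71 to 1.01) and 0.17 (-0.69 to 1.03). They were not called, and OCLN was higher in 2 of 3 animals with each protein. In bEECs the summed level of the leukocyte markers CD14 and AIF1 (2 of 3 matched) was 12.7 to 21.0 CPM with VC, 44.7 to 58.4 with rbCAPG and 53.0 to 71.5 with rbPDI. That of the endothelial markers TEK, SELP and ESM1 (3 of 4 matched) was 757.5 to 1287 CPM, 3581 to 4226 and 3035 to 6584. This sum was mostly ESM1 (means 1014, 3955 and 4962 CPM). SELP stood at 2.68, 13.1 and 19.1 CPM and TEK at 0.0727, 0.585 and 0.704 CPM. With VC, ESM1 was higher in bEECs than in bESCs (log2 difference 3.06), while SELP (-5.92) and TEK (-2.05) were lower. Over the bESC libraries the endothelial sum was 252.4 to 735.4 CPM. Without the block, edgeR called CD14 (2.35, adjusted p = 0.0421) and TEK (3.23, 0.0442) in bEECs with rbPDI, where 0.77% of all genes were called higher. It did not call AIF1, SELP or ESM1 there, nor any of these markers with rbCAPG (0.513% of all genes). With the block and rbCAPG, edgeR called CD14 (adjusted p = 0.00241), AIF1 (0.0138), TEK (0.0445) and ESM1 (0.0169) but not SELP (0.0621), where 2.04% of all genes were called higher. With the block and rbPDI it called each of these markers, where 2.57% of all genes were. DESeq2 called all of them with both proteins, where 0.879% (rbCAPG) and 1.16% (rbPDI) of its genes were called higher. In bESCs, where CHI3L2 was at 0, AIF1 was at 0 to 0.082 CPM and CD14 was at 4.35 CPM or more in each library. The part of these cell types in the CHI3L2 and BPNT2 results was not tested.

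Among 189 other tested genes with a symbol, those whose log2 CPM followed each gene most closely differed. Over the 18 samples these were OLR1 (Pearson r = 0.936), CD200 (0.925) and MAP3K8 (0.925) for HAS2, and TSHZ3 (0.972), DZIP1 (0.972) and HAND2 (0.969) for CHST11. For BPNT2 they were CX3CL1 (0.883), CD83 (0.881) and NFKBIA (0.870), and for CHI3L2 CAPN14 (0.960) and SLC5A1 (0.947). The difference between the cell types enters these values.

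Within the 9 bEEC samples, HAS2 was closest to PDE4B (r = 0.982), RND1 (0.977) and CPOX (0.976), and CHST11 to SCARF2 (0.925), GPX3 (0.907) and ADAM19 (0.883). BPNT2 was closest to the collagenase MMP1 (0.984), FERMT1 (0.974) and the chemokine CXCL2 (0.968), and CHI3L2 to PROKR2 (0.977), the monocyte co-receptor CD14 (0.975) and NRP2 (0.974). These are descriptions over samples that share animals, treatments and libraries, among genes that the study had listed as altered.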

How the data were processed

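RNA of bEECs and bESCs from 18 device chambers was amplified (SMART-Seq v4) and sequenced as paired ends. The authors used Trimmomatic for trimming, STAR for alignment to ARS-UCD1.3 (Ensembl 113) and featureCounts for counting, multi-mapping and overlapping reads being counted as fractions. The deposited values are therefore expected counts, 23.3% of them not whole (tolerance 1e-09), and were rounded here. CHST11 had 1 such value of 18, HAS2 9, BPNT2 and CHI3L2 0. Reads shared between like or overlapping genes are thus split, and no strand setting is stated. Tool versions were not given in the sources used here.

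Groups and replicates came from the sample titles, and 0 columns were left unused. Counts were fitted as 6 group means with edgeR 4.0.16 in R 4.3.3 (filterByExpr, TMM, quasi-likelihood F-test, 12 residual degrees of freedom, 8 with the block). Standard errors are the log2 change over the root of F and were not taken at F under 0.05. P-values of the main edgeR fit and of the one with the block were adjusted over all 17931 genes. DESeq2 was run without that filter and adjusted with its own default filtering. Its shares are of the 29808 genes to which it gave a p-value, so they are not on the gene set of the edgeR shares. Alternatives were DESeq2 1.42.0 with a local fit, its size factors in edgeR, no filter, at least 10 counts in 9 samples, 1 cell type alone, no fold limit, the animal as a block within each cell type, and each sample left out. Code was tested on simulated data.

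Named were the 4 genes in every comparison, all matched genes of the related lists, and the 3 genes with the highest r, of which 1 is not reported here. Members and lists were chosen with earlier results of these data known. The replicate number is the animal by the study's methods. Deviations from group means correlated at a mean r of 0.481 between same-animal bEEC samples (lowest 0.311), 0.396 between bESC samples (lowest 0.129) and 0.175 across cell types, against -0.239, -0.199 and -0.0869 for different animals. A count of 0 allows up to 3 reads, which is 6.78e-06% to 2.98e-05% of a library's counts. Counting intervals are exact conditional binomial ones at 95% and, without molecular identifiers, cover counting error only.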

Additional observations from a re-analysis of the deposited data

How the results depend on the processing

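For rbCAPG in bEECs, where edgeR called 1 of the 4 genes, DESeq2 called 4, the replicate block 2, the samples of 1 cell type alone 2 and the fit with no filter on low counts 0, and leaving out single samples gave 0 to 1. For rbPDI in bEECs, with 3 called, leaving out single samples gave 0 to 2, and the stricter filter, which removes CHI3L2 by construction, left 2 of 3. The replicate block changed no other call of these genes. Leaving out a sample lowers the residual degrees of freedom and also moves the estimates. The cause of the shifts was not tested. The directions that turned belonged to differences that had not passed the test. For BPNT2 between cell types with VC, the log2 difference was 0.04 with DESeq2, with its size factors and with no filter, 0.0047 with the block, and -0.15 to 0.14 with single samples left out. For CHST11, the rbPDI change in bEECs minus that in bESCs was -0.01 and became 0.08 with DESeq2, 0.004 with its size factors, 0.02 with no filter, 0.01 with the block, and -0.40 to 0.54 with single samples left out. With single samples left out, rbPDI against rbCAPG ran from -0.02 to 0.52 for CHI3L2 in bEECs and from -0.06 to 0.16 for CHST11 in bESCs.

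Depth limits HAS2, CHST11 and CHI3L2 in bEECs, where VC samples held 0 to 10 reads of each, so that 1 read moves a VC value by much of its size and the fitted changes depend on the small offset that edgeR adds. BPNT2, at over 1000 reads in every sample, does not have this limit. The 3 animals of a group and the 12 residual degrees of freedom limit all tests.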
